A study of Homo sapiens with 12 samples.

Results

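The knockdown of CPT2 was set against the knockdown of CPT1 in MDA231 cells, the human line MDA-MB-231, which is long established and derives from breast cancer of the triple-negative type. The arrays were chosen by their source label: the 3 arrays labelled shCPT-2 and the 3 labelled shCPT-1, which are 6 of the 12 arrays of the series. Cells of both groups carried a pGIPZ lentiviral short hairpin RNA, a construct that lowers the transcript it matches, with a different target in each group. The control group of 3 arrays carried a scrambled hairpin (scramble). A group of 3 scramble arrays with ETX is not compared here. It entered the estimate of the spread, the filter on low intensity and the choice of probe set. The labels name CPT1 without an isoform, and the hairpin sequences, the number of hairpins or clones per knockdown and the time after transduction are, in the sources used here, not given. The protocols of the series describe mice and tumours, while the arrays are labelled as the cell line, so whether the RNA came from cultured cells is also not given. The labels do not state whether a group's 3 arrays are separate cultures, so the p-values measure the spread of these arrays alone, and that spread may be technical.

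The 2 enzymes act in sequence on the same substrate. CPT1, on the outer mitochondrial membrane, joins a long-chain fatty acid to carnitine, and it is the step that malonyl-CoA, the building block of fatty acid synthesis, holds back. A translocase carries the acylcarnitine across the inner membrane, where CPT2 restores the acyl-CoA that enters beta-oxidation. Loss of CPT1 therefore stops the fatty acid before the mitochondrion, and loss of CPT2 stops it as acylcarnitine inside the shuttle. CPT1A is the widely expressed CPT1 isoform, CPT1B the muscle isoform and CPT1C an isoform best known from brain.

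All values are log2 of the deposited probe set intensity, a probe set being the group of short probes that reads 1 transcript region. A difference is shCPT-2 minus shCPT-1 on that scale, so that 1 is a 2-fold difference, with its standard error from the limma fit and 3 arrays a group. A gene is called higher or lower at a Benjamini-Hochberg adjusted p under 0.05 over 12886 tested genes. The level of a probe set depends on its probes, and levels of different genes are not set against each other.

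The knockdowns differed widely but mostly by small amounts. Of the 12886 genes, 4575 (35.5%) were called, 2287 (17.7%) higher and 2288 (17.8%) lower in shCPT-2. The counts of list members called, given below, are to be read beside these shares. The median size of a called difference was 0.29, a 1.22-fold difference, and the median difference of all tested genes was 0.003. At 2-fold or more, 33 genes (0.256%) were higher and 88 (0.683%) lower. In 6260 genes (48.6%) the 3 arrays of a group did not overlap the 3 of the other. Arrays of a group correlated at 0.996 to 0.9989 over the tested genes and arrays of different groups at 0.9842 to 0.9877, and the median intensity was 75.3 to 76.2 in the 6 arrays. The actin control probe sets, whose 3′ signal over 5′ signal rises with RNA breakdown, differed on the log2 scale by 1.73 ± 0.23 (SD, n = 3) in the shCPT-1 arrays and 1.68 ± 0.23 (SD, n = 3) in the shCPT-2 arrays. All 10 markers of the basal-type line were above the filter, among them VIM at 14.47 to 14.53 in all 6 arrays, and their differences ran from -0.196 to 0.045. LGALS1, a galectin (-0.16 ± 0.04, adjusted p 0.00852), and ANXA1, an annexin (-0.11 ± 0.04, adjusted p 0.0331), were called lower. CAV2 (-0.196, adjusted p 0.0572), CAV1 (-0.05), CD44 (0.04), AXL (-0.03) and MSN (0.03) did not pass the test. ANXA1 lost its call in 4 fits without 1 of the arrays (shCPT-1 replicate 2 or 3, shCPT-2 replicate 2 or 3; adjusted p 0.0827 to 0.111), and its mean over probe sets was 0.02 higher.

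Each group had less of the transcript its label names. CPT1A read 8.12, 8.10 and 8.34 in the shCPT-1 arrays and 9.58, 9.60 and 9.48 in the shCPT-2 arrays, against 9.64 to 9.86 in scramble. The shCPT-2 arrays thus lay close under the control and all 3 above every shCPT-1 array, by 1.37 ± 0.08 (2.58-fold, adjusted p 1.02e-07). All 3 CPT1A probe sets were higher in shCPT-2, by 1.37, 1.27 and 0.64. CPT2 read 7.81, 7.63 and 7.45 in shCPT-1 and 6.61, 6.22 and 6.39 in shCPT-2, against 7.31 to 7.46 in scramble. Its level in shCPT-1 was at or above the control, and it was lower in shCPT-2 by -1.22 ± 0.10 (adjusted p 2.06e-06), with a second probe set at -1.43. It passed the array median in 2 of 3 shCPT-2 arrays, so its fold is less certain there. CPT1C read 8.45 to 8.76 in shCPT-1 and 8.49 to 8.52 in shCPT-2, overlapping groups with a difference of -0.15 ± 0.07 (adjusted p 0.134), which became -0.25 (adjusted p 0.00247) without shCPT-1 replicate 1. CPT1B gave no tested value, since its probe sets name several genes.

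**Figure D1:**
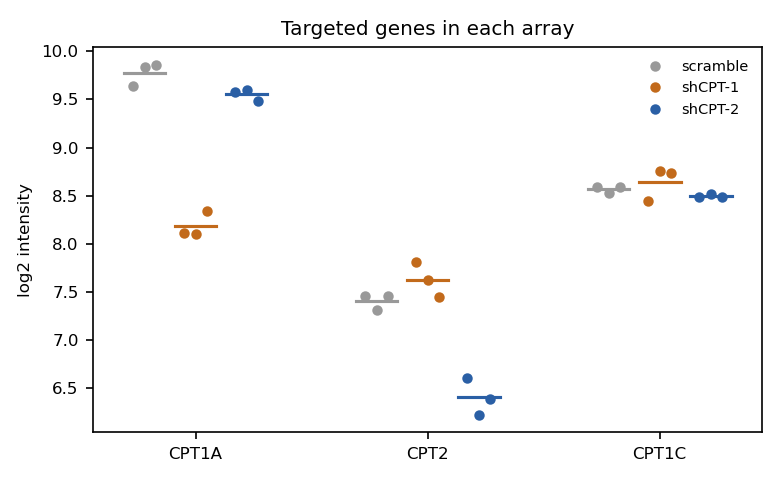
Log2 intensity (vertical axis) of CPT1A, CPT2 and CPT1C in each scramble, shCPT-1 and shCPT-2 array; points are arrays and short lines group means (n = 3). CPT1A is lowest in the shCPT-1 arrays (8.10 to 8.34) and CPT2 in the shCPT-2 arrays (6.22 to 6.61), while the groups overlap for CPT1C.

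The rest of the carnitine shuttle, which brings long-chain fatty acids into the mitochondrion, moved little. Of its 12 tested genes 2 were higher and 3 lower (16.7% and 25%, beside 17.7% and 17.8% of all genes), with both targets among them. ACSL5, which makes long-chain acyl-CoA, was lower by -0.32 ± 0.06 (adjusted p 0.00169). Its relative ACSL1 was higher by 0.25 ± 0.05 (adjusted p 0.00268). In beta-oxidation proper, 0 of 24 genes were higher and 9 lower, with a list median of -0.13 beside 0.003 for all genes. Without the least correlated array of each group (scramble replicate 3, ETX replicate 3, shCPT-1 replicate 1 and shCPT-2 replicate 2), 6 were higher and 12 lower. ECI1, an enoyl-CoA isomerase, was the most clearly changed member, at 9.13, 9.06 and 9.04 in shCPT-1 and 8.57, 8.59 and 8.58 in shCPT-2 (-0.50 ± 0.05, adjusted p 9.86e-06). HADH, a dehydrogenase of the cycle (-0.30 ± 0.05), HSD17B4, the peroxisomal multifunctional enzyme (-0.28 ± 0.05), and ETFDH, which passes the electrons of beta-oxidation to ubiquinone (-0.44 ± 0.09), were also lower. Without shCPT-2 replicate 2, and without ETX replicate 3, 1 member of this list was called higher.

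The 15 largest rises in shCPT-2, taken among called genes with no overlap between groups and a higher group mean at or above 8.69, the median gene, began with ZNF184, a zinc finger gene of the KRAB type. It read 7.79, 7.94 and 7.89 in shCPT-1 and 11.06, 11.01 and 11.12 in shCPT-2 (3.19 ± 0.05, 9.14-fold, adjusted p 2.69e-12). The scramble arrays (8.02 to 8.10) lay near shCPT-1, so the high group was shCPT-2. ESM1, the secreted proteoglycan endocan, followed the same layout, at 7.79, 7.70 and 7.85 in shCPT-1, 9.81, 9.86 and 9.83 in shCPT-2 and 7.25 to 7.48 in scramble (2.06 ± 0.07, 4.16-fold). ESM1 was read by 1 probe set, of a kind that may cross-hybridise. ADAMTS1, a secreted metalloproteinase that cleaves the matrix proteoglycan versican, rose from 9.49 to 9.59 in shCPT-1 to 11.18 to 11.36 in shCPT-2 (1.73 ± 0.08). Its relative ADAMTS6 rose by 1.54 ± 0.07.

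In FAT3 and FABP5 the control lay above both knockdowns. FAT3, a large atypical cadherin, read 7.65 to 7.99 in shCPT-1, 9.46 to 9.54 in shCPT-2 and 10.41 to 10.77 in scramble, so that both knockdowns were under the control (1.63 ± 0.10 between them). FABP5, which carries fatty acids within the cell, had the same order, at 8.03 to 8.15, 9.30 to 9.39 and 11.14 to 11.21 (1.25 ± 0.05 between the knockdowns). NRXN3, a neurexin, and RIMS2, a scaffold of vesicle release, rose by 1.46 ± 0.07 and 1.43 ± 0.05. ST6GALNAC5, a sialyltransferase, rose by 1.34 ± 0.05. EDN1, the vasoconstrictor peptide endothelin-1, read 9.95 to 10.08 in shCPT-1 and 11.29 to 11.36 in shCPT-2 (1.31 ± 0.06), with scramble at 9.91 to 10.10. The non-coding RNA LINC01111 (1.28 ± 0.07) and CXCR4, the receptor of the chemokine CXCL12 (1.18 ± 0.05), were also among the 15. TAGLN, the actin-binding protein transgelin, was higher by 1.54 ± 0.11, but its 3 probe sets ran from -0.01 to 1.98, and without the probe set kinds prone to cross-hybridisation the difference was -0.01 (adjusted p 0.958). The last members inside the limit of 15 were CXCR4 (1.18) and PTGER4 (1.18), and the next genes outside it were MMP1 (1.15) and SLAMF7 (1.13).

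**Figure D2:**
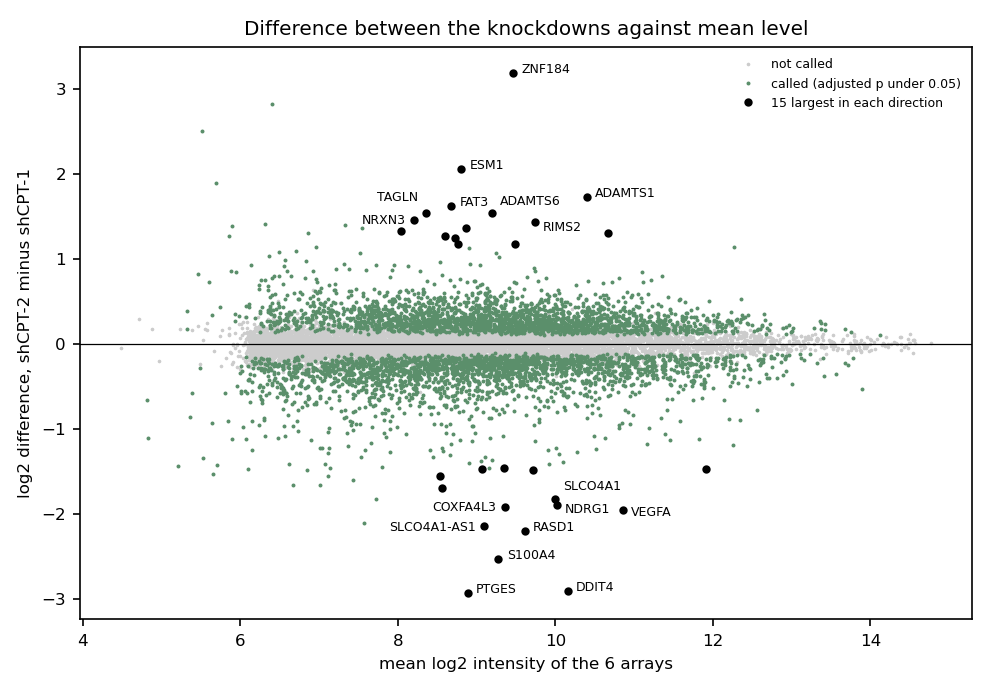
Log2 difference between shCPT-2 and shCPT-1 (vertical axis) against the mean log2 intensity of the 6 arrays (horizontal axis) for 12886 genes; grey points were not called, green points were, and black points are the 15 named in each direction. ZNF184 lies highest at 3.19, PTGES and DDIT4 lowest at -2.93 and -2.91, and 88 genes fall at least 2-fold below 0 against 33 above.

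The 15 largest falls were led by PTGES, the synthase that makes prostaglandin E2. It read 10.22, 10.45 and 10.39 in shCPT-1 and 7.78, 7.11 and 7.38 in shCPT-2 (-2.93 ± 0.13, 7.62-fold lower, adjusted p 1.05e-08). Scramble lay between, at 8.95 to 9.10, so the 2 knockdowns stood on opposite sides of the control. PTGER4, a receptor of prostaglandin E2, was among the 15 rises, at 8.96, 8.87 and 8.88 in shCPT-1 and 10.24, 9.89 and 10.12 in shCPT-2 (1.18 ± 0.09). The inducible cyclooxygenase PTGS2, picked after its values were seen, was lower by -0.61 ± 0.10 (adjusted p 0.00034). Of 10 prostaglandin synthesis and receptor genes, a group put together after the values were seen, 1 was higher and 3 lower. Over all genes 17.7% were higher and 17.8% lower.

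DDIT4, a stress-induced inhibitor of mTORC1, read 11.70, 11.57 and 11.56 in shCPT-1 and 8.89, 8.50 and 8.72 in shCPT-2 (-2.91 ± 0.08, 7.51-fold lower, adjusted p 7.7e-10), with scramble between at 10.43 to 10.50. S100A4, a calcium-binding protein known from metastasis, had the same layout, at 10.64, 10.49 and 10.49 in shCPT-1, 8.10, 7.88 and 8.06 in shCPT-2 and 9.17 to 9.24 in scramble (-2.52 ± 0.06). Of 12 tested S100 genes 8 were lower and 0 higher, beside 17.8% and 17.7% of all genes. This family was read after S100A4 and S100A2 had been seen. S100A2 was at -1.55, S100A3 at -1.04, S100A6 at -0.53 and S100A13 at -0.53. RASD1, a small GTPase induced by glucocorticoid, was also on opposite sides of the control, at 10.69 to 10.74 in shCPT-1, 8.40 to 8.68 in shCPT-2 and 9.66 to 9.75 in scramble (-2.20 ± 0.07).

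For other falls the control lay near or above shCPT-1. SLCO4A1, an organic anion transporter, read 10.88, 10.89 and 10.96 in shCPT-1 and 9.25, 8.95 and 9.07 in shCPT-2 (-1.82 ± 0.07), and scramble lay above both at 11.69 to 11.74. The antisense RNA at the same locus, SLCO4A1-AS1, fell by 2.14 ± 0.14 and had scramble (10.05 to 10.11) close to shCPT-1 (10.13 to 10.24). COXFA4L3, a relative of a respiratory complex IV subunit, fell by 1.92 ± 0.09, and IGFBP4, a secreted binder of insulin-like growth factors, by 1.47 ± 0.06. TRIB2, a pseudokinase, fell by 1.46 ± 0.08. MAGEA6 fell by 1.69 ± 0.07, read by a probe set kind that may cross-hybridise with the near-identical MAGE-A genes. The last members inside the limit of 15 were TRIB2 (-1.46) and BHLHE40 (-1.46), and the next genes outside were TENT5C (-1.45) and TIMP3 (-1.41).

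**Figure D3:**
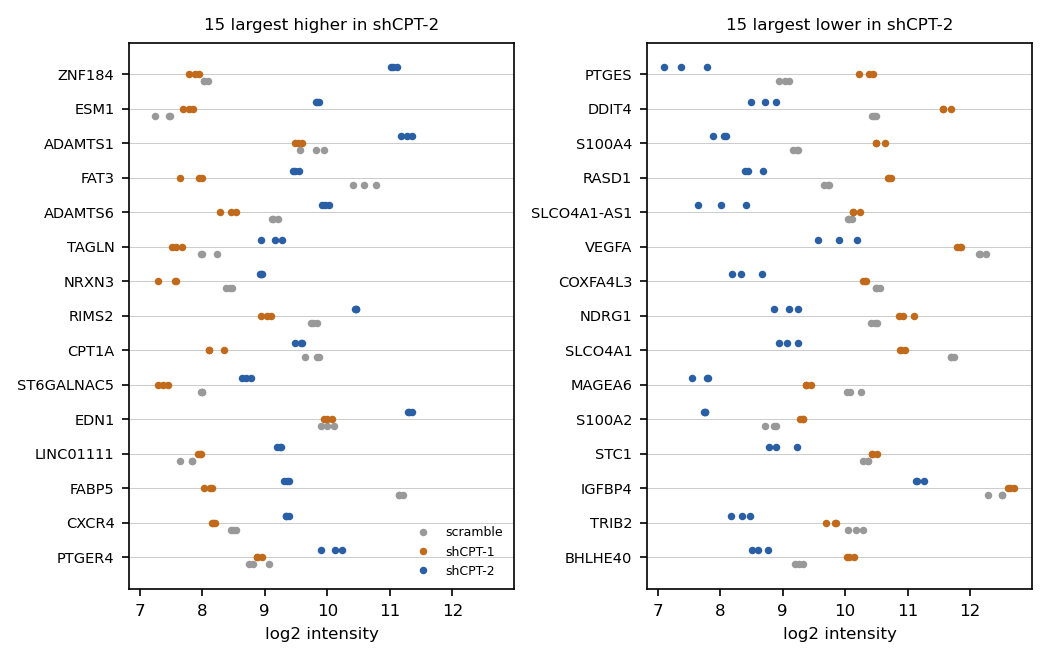
Log2 intensity (horizontal axis) of the 15 genes with the largest rises (left) and falls (right) in each scramble, shCPT-1 and shCPT-2 array (points, n = 3 a group). The knockdown groups do not overlap in any of the 30 genes, by the rule; scramble lies near shCPT-1 for ZNF184 and ESM1 and between the knockdowns for PTGES, DDIT4 and S100A4.

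The hypoxia response was the most one-sided of the lists by share of members called. Hypoxia-inducible factors are dimers of an oxygen-regulated alpha subunit and ARNT that bind short elements with the core ACGTG and switch on genes for glucose use, vessel growth and pH control. Of 33 tested members 2 were higher and 26 lower (78.8%, beside 17.8% of all genes), with a list median of -0.51, and 11 were lower by 2-fold or more. In 30 of the 33 the groups did not overlap, beside 48.6% of all genes. Without the probe set kinds prone to cross-hybridisation, 16 were lower. Members with no other probe set, such as DDIT4, NDRG1 and P4HA1, were then not tested. VEGFA, the main vascular growth factor, read 11.85, 11.79 and 11.86 in shCPT-1, 10.18, 9.57 and 9.90 in shCPT-2 and 12.14 to 12.25 in scramble, so that shCPT-1 was just under the control and shCPT-2 far under it (-1.95 ± 0.11, 3.86-fold lower). NDRG1, a stress-response gene, read 11.10, 10.93 and 10.86 in shCPT-1 and 9.25, 8.87 and 9.10 in shCPT-2 (-1.89 ± 0.09). STC1, a secreted glycoprotein, fell by 1.48 ± 0.09. BHLHE40, a transcriptional repressor, read 10.14, 10.04 and 10.07 in shCPT-1, 8.76, 8.51 and 8.60 in shCPT-2 and 9.20 to 9.33 in scramble (-1.46 ± 0.07), which puts the control between the knockdowns.

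The factor subunits themselves, named after their values were seen, were lower too. HIF1A read 12.94, 12.84 and 12.78 in shCPT-1 and 11.88, 11.50 and 11.62 in shCPT-2 (-1.19 ± 0.08, adjusted p 5.81e-07). EPAS1, the gene of HIF-2 alpha, read 10.69, 10.52 and 10.40 in shCPT-1 and 9.41, 9.16 and 9.30 in shCPT-2 (-1.24 ± 0.08). Their partner ARNT fell by 0.24 ± 0.05 (adjusted p 0.00123), and its 4 probe sets ran from -0.33 to -0.01. The mitophagy receptors BNIP3 (-0.88 ± 0.05) and BNIP3L (-0.99 ± 0.06) and the carbonic anhydrase CA12 (-1.26 ± 0.08) were lower as well. ADM, the vasodilator peptide adrenomedullin, went the other way, at 10.58, 10.69 and 10.76 in shCPT-1 and 11.42, 11.62 and 11.52 in shCPT-2 (0.84 ± 0.06), both under scramble (12.05 to 12.10), and the demethylase-related gene JMJD6 was higher by 0.20 ± 0.04 (0.07, adjusted p 0.198, as the mean of its probe sets). Over the list, the median difference from scramble was 0.27 for shCPT-1 and -0.39 for shCPT-2, beside 0.01 for all genes in each.

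The promoters of DDIT4 and BHLHE40 are shown because both genes were among the 15 largest falls and carry the ACGTG core of the hypoxia element. They are the 250 bases upstream of the transcription start in RefSeq (GRCh38.p14), 5′ to 3′ on the gene's strand, with each match on either strand in capitals (CACGT is the core on the other strand). DDIT4 lies on chromosome 10 (chr10:72273674-72273923, plus strand) with 1 match, and BHLHE40 on chromosome 3 (chr3:4979187-4979436, plus strand) with 4 matches, 2 of which overlap.
DDIT4: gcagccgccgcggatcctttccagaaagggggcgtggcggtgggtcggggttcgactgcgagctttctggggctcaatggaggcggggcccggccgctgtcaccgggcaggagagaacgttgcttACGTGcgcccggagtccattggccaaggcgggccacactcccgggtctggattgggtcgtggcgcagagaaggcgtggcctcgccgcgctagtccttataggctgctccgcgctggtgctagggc
BHLHE40: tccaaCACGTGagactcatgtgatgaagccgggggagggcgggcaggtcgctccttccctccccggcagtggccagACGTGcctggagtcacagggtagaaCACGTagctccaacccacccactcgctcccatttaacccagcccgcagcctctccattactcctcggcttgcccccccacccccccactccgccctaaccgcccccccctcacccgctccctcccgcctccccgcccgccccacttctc
The core is short and common: 2411 of 10425 tested genes with a promoter in the table (23.1%) held it in this window. Among the hypoxia list it was in 12 of 26 (46.2%), in 9 of 21 members called lower and 3 of the 5 others. A match describes the sequence and is not evidence that a factor binds there.

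Glycolysis shares several genes with the hypoxia list. Of 23 tested members 0 were higher and 14 lower, with a list median of -0.23. Without the probe set kinds prone to cross-hybridisation, 8 were lower, a count that leaves out any member with no other probe set. PFKFB4, which makes the activator of phosphofructokinase, read 9.78, 9.75 and 9.79 in shCPT-1 and 8.50, 8.44 and 8.39 in shCPT-2 (-1.33 ± 0.05, adjusted p 5.83e-09). Its 2 probe sets ran from -1.33 to -0.20. The kinases that shut pyruvate dehydrogenase, PDK1 (-0.77 ± 0.06) and PDK3 (-0.51 ± 0.05), and the neuronal enolase ENO2 (-0.61 ± 0.05) were lower. The 4 probe sets of PDK3 ran from -0.51 to -0.08. The glucose carrier SLC2A1 (-0.39 ± 0.05) and lactate dehydrogenase LDHA (-0.25 ± 0.04), both picked after their values were seen, were lower by less. Without scramble replicate 3, and without shCPT-2 replicate 2, 1 member was called higher.

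Interferon-stimulated genes, which cells switch on after sensing double-stranded RNA or interferon, were lower in shCPT-2. Of 46 tested members of the list 1 was higher and 29 lower (63%, beside 17.8% of all genes), with a median of -0.26. The groups did not overlap in 38, beside 48.6% of all genes. ISG20, an exonuclease against viral RNA, read 8.31, 8.14 and 8.18 in shCPT-1 and 7.12, 6.91 and 6.88 in shCPT-2, with scramble at 6.86 to 7.08 beside shCPT-2 (-1.24 ± 0.08, adjusted p 2.52e-07). For IFITM1, an entry restriction factor, scramble was instead the highest group, at 8.48 to 8.61 against 7.90 to 8.04 in shCPT-1 and 7.26 to 7.39 in shCPT-2 (-0.63 ± 0.05). OASL (-0.84 ± 0.07) and IFIT2 (-0.74 ± 0.06) were lower, as were IFIT1 (-0.80 ± 0.09), ISG15, a ubiquitin-like modifier (-0.63 ± 0.06), and BST2, which tethers budding virus (-1.22 ± 0.14), the last 3 picked after their values were seen. The ubiquitin ligase TRIM21 was the 1 member called higher (0.22 ± 0.05). Without scramble replicate 1 or 3, or shCPT-2 replicate 1, 2 members were. The list's median difference from scramble was 0.03 for shCPT-1 and -0.23 for shCPT-2. The machinery that processes small RNAs and hairpins gave 5 higher and 4 lower of 20 (median -0.003). These are 25% and 20%, near the 17.7% and 17.8% of all genes. DROSHA, the nuclear hairpin nuclease, was at 0.29 ± 0.05 and AGO4, an Argonaute protein, at -0.56 ± 0.07. The 2 probe sets of AGO4 ran from -0.56 to -0.12. The helicase DDX5 was lower by -0.49 ± 0.07 and TNRC6B, an Argonaute partner, by -0.48 ± 0.06.

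Genes of antigen presentation by MHC class II, normally a property of immune cells and inducible in epithelial tumours, had larger differences than those of class I. Of 19 tested genes of the MHC list 2 were higher and 13 lower (median -0.25). These are 10.5% and 68.4%, beside 17.7% and 17.8% of all genes. Split by class after the values were seen, 7 of 8 class II genes of the list were lower with a median of -1.27. In class I 6 of 10 were lower with a median of -0.23, and the protease CTSS was put in neither. The list did not hold every class II gene tested. HLA-DOB, outside it, was called higher (0.39 ± 0.11, adjusted p 0.0162), with all 3 shCPT-1 arrays under the array median. HLA-DQB2 and HLA-DOA, also outside it, were not called. Without the probe set kinds prone to cross-hybridisation, 7 members of the MHC list were lower in place of 13. Genes with no other probe set, HLA-DMA and HLA-DRB1 among them, were then not tested. HLA-DMA, a peptide-loading chain, read 8.48, 8.56 and 8.51 in shCPT-1 and 7.19, 6.92 and 7.10 in shCPT-2 (-1.45 ± 0.09, adjusted p 1.83e-07). CD74, the invariant chain that guides class II molecules, read 10.58, 10.67 and 10.61 in shCPT-1 and 9.44, 9.37 and 9.39 in shCPT-2 (-1.22 ± 0.07), with scramble beside shCPT-1 at 10.62 to 10.95. Its 2 probe sets, however, ran from -1.22 to -0.02. The chains HLA-DRA (-1.83 ± 0.13), HLA-DPA1 (-1.41 ± 0.07) and HLA-DRB1 (-1.32 ± 0.06) were lower. HLA genes resemble each other and HLA-DRB1 is read by a probe set kind that may cross-hybridise, so its value may be shared with other DRB genes. CIITA, the master activator of class II genes, read 6.30 to 6.40 in shCPT-1 and 6.22 to 6.44 in shCPT-2, and differed by -0.01 ± 0.10 (adjusted p 0.936) near the lower limit of the filter. In class I, HLA-B was lower by -0.29 ± 0.07 and HLA-E by -0.22 ± 0.05, while the peptide transporter TAP2 was higher (0.33 ± 0.05). CTSS, the protease that trims the class II invariant chain and was put in neither class, was also higher (0.53 ± 0.07, adjusted p 9.96e-05). In bulk RNA, fewer cells that express such genes and less RNA per cell cannot be told apart. Only some kinds of leukocyte regularly carry class II genes. Of 12 leukocyte markers 3 were tested, with a summed intensity of 265 to 273 in shCPT-1 and 245 to 266 in shCPT-2. PTPRC and CD14 were not among the tested genes. CD3E was at -0.07 (adjusted p 0.581). CSF1R was called lower (-0.55 ± 0.08), but it was under the array median in all 3 shCPT-2 arrays, where its fold is less certain. CD8A was called higher (0.23 ± 0.07), but not without shCPT-1 replicate 1 or 2 or shCPT-2 replicate 1 or 2 (adjusted p 0.0516 to 0.111). The part of these markers in the result was not tested.

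The promoters of ISG20 and BST2 and of HLA-DMA and HLA-DRB1 are shown because these genes were called lower and hold the element known for their group. For the first pair the capitals mark GAAA, any 2 bases and GAAA again, the interferon-stimulated response element, and for the second CTGATTGG, the Y box of class II promoters, each searched on both strands of the 250 bases upstream of the start (RefSeq, GRCh38.p14). ISG20 lies at chr15:88638766-88639015 (plus strand), BST2 at chr19:17405631-17405880 (minus strand, 2 overlapping matches), HLA-DMA at chr6:32953098-32953347 and HLA-DRB1 at chr6:32589849-32590098 (both minus strand).
ISG20: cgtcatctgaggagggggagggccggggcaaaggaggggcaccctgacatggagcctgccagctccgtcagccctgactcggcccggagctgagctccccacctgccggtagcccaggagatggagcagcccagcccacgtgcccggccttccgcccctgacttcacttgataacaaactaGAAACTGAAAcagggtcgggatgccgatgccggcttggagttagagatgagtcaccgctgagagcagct
BST2: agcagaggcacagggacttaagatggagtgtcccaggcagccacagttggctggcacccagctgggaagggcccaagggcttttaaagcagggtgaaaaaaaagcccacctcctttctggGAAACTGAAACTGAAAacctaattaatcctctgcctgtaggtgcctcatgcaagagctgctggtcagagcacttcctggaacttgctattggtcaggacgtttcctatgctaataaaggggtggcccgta
HLA-DMA: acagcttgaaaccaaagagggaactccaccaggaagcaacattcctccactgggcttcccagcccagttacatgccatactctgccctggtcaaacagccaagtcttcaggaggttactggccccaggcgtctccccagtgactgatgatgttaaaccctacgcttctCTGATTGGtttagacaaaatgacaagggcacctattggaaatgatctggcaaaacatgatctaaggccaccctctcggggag
HLA-DRB1: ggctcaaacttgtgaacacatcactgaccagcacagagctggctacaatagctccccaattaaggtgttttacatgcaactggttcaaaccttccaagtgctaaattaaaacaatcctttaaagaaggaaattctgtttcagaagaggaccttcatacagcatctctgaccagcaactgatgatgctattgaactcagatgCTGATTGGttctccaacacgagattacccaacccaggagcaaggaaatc
The interferon element was in 228 of the 10425 promoters (2.19%) and in 17 of 37 promoters of the interferon list (45.9%). It was in 10 of 23 members called lower and in 7 of the 14 others, so that within the list it did not sort the called genes from the rest. The Y box was in 533 promoters (5.11%) and in 7 of 14 of the MHC list, 6 of 10 called lower and 1 of the 4 others.

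**Figure D4:**
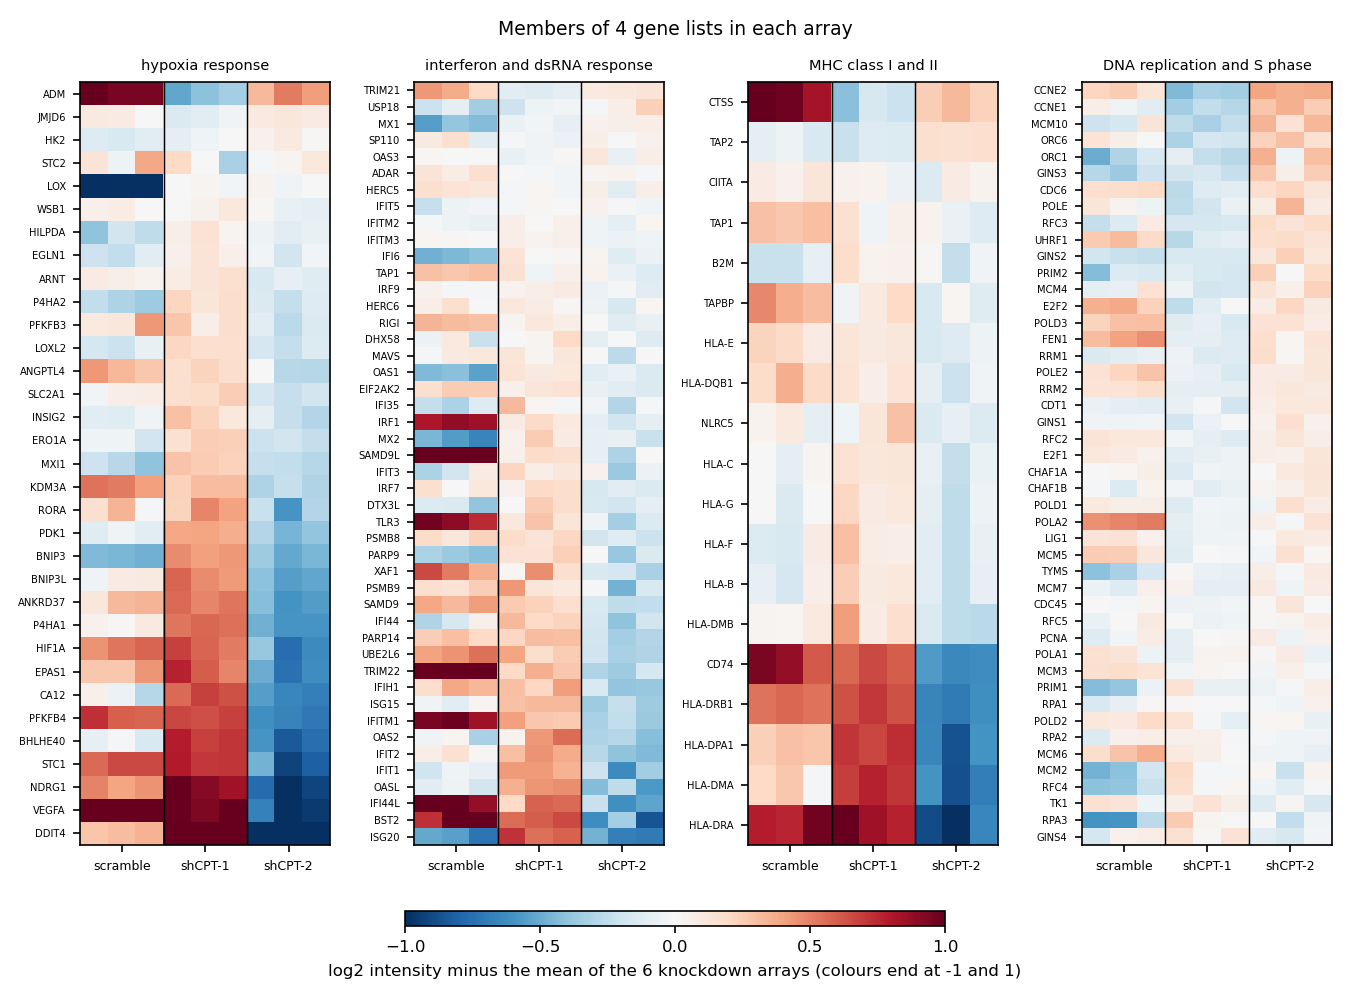
Each gene (row) of the hypoxia, interferon, MHC and DNA replication lists in each scramble, shCPT-1 and shCPT-2 array (columns); colour is log2 intensity minus the mean of the 6 knockdown arrays, red above and blue below, and colours end at -1 and 1. The shCPT-2 columns are mostly blue in the first 3 panels (26 of 33, 29 of 46 and 13 of 19 genes called lower) and mostly red in the fourth (24 of 46 called higher).

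About as many DNA replication genes were called higher in shCPT-2 as did not pass the test, by small amounts. Of 46 tested members of the replication and S phase list 24 were higher and 1 lower, with a median of 0.16. CCNE2, a cyclin that starts S phase, read 9.98, 10.09 and 10.07 in shCPT-1, 10.81, 10.78 and 10.79 in shCPT-2 and 10.54 to 10.67 in scramble (0.74 ± 0.05, adjusted p 3.63e-07). The related CCNE1 rose by 0.59 ± 0.05. CDC6 (0.34 ± 0.05) and ORC6 (0.45 ± 0.07), which load the helicase at origins, rose as well, and so did MCM10 (0.55 ± 0.08), picked after its values were seen. GINS4, the 1 member called lower (-0.20 ± 0.07, adjusted p 0.0423), lost that call without ETX replicate 1, shCPT-1 replicate 1 or 3 or shCPT-2 replicate 1 or 2 (adjusted p 0.0562 to 0.124), and without scramble replicate 3 the list had 2 members lower. Of 46 mitosis genes 5 were higher and 9 lower (median -0.02), but 11 were higher and 9 lower without the least correlated array of each group. CKS2, a cofactor of cyclin-dependent kinases (-0.45 ± 0.06), the cyclin CCNB2 (-0.39 ± 0.05) and the phosphatase CDC25B (-0.36 ± 0.05) were lower, and CENPI, a centromere protein, was higher (0.41 ± 0.06). The 2 probe sets of CCNB2 ran from -0.39 to 0.05. The list medians against scramble were, for replication, -0.09 with shCPT-1 and 0.05 with shCPT-2, and for mitosis 0.08 and 0.02.

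The promoters of POLE, the leading-strand polymerase (0.33 ± 0.08, adjusted p 0.00663), and RFC3, a subunit of the clamp loader (0.33 ± 0.07, adjusted p 0.00221), are shown as members called higher that hold an E2F site. Capitals mark TTTCCCGC, TTTGGCGC, TTTCGCGC or TTTGCCGC on either strand, here GCGCCAAA and GCGGGAAA, in the 250 bases upstream (RefSeq, GRCh38.p14). POLE lies at chr12:132687343-132687592 (minus strand) and RFC3 at chr13:33817899-33818148 (plus strand).
POLE: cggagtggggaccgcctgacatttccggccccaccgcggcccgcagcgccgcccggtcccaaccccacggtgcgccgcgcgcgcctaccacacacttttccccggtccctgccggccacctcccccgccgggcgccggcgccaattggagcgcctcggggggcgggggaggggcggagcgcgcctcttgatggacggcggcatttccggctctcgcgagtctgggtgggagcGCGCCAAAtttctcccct
RFC3: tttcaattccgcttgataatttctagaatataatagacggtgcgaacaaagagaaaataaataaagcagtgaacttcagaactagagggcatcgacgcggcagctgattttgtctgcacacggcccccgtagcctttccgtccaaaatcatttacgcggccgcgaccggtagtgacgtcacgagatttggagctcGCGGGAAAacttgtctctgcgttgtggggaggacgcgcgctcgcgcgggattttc
Such a site was in 454 of the 10425 promoters (4.36%) and in 15 of 39 promoters of the list (38.5%), in 7 of 21 called higher and 8 of the 18 others.

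The EGF receptor and MAPK feedback list, made of ligands, immediate early genes and the phosphatases and Sprouty proteins that ERK signalling induces, was lower in shCPT-2 in 20 of 36 members and higher in 3 (median -0.21). That is 55.6% lower and 8.33% higher, beside 17.8% and 17.7% of all genes. TGFA, an EGF receptor ligand, read 10.29, 10.33 and 10.33 in shCPT-1 and 9.22, 9.18 and 9.14 in shCPT-2 (-1.14 ± 0.04, adjusted p 3.68e-09), below scramble at 10.01 to 10.08. Its 2 probe sets ran from -1.14 to -0.34. ERRFI1, a feedback inhibitor of the receptor, read 12.38, 12.39 and 12.40 in shCPT-1 and 11.30, 11.30 and 11.22 in shCPT-2 (-1.12 ± 0.04), with scramble between at 11.71 to 11.76. KLF2, a transcription factor, fell by 0.87 ± 0.07. The ERK phosphatases DUSP4 (-0.66 ± 0.06) and DUSP6 (-0.45 ± 0.06) and the Sprouty gene SPRY4 (-0.58 ± 0.07), picked after their values were seen, were lower. The ligand NRG1 was higher (0.52 ± 0.04), but by 0.155 (adjusted p 0.315) without the probe set kinds prone to cross-hybridisation. EGFR itself read 10.74 to 10.99 and 10.72 to 11.09 in the 2 groups and differed by 0.03 ± 0.09 (adjusted p 0.862).

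Angiogenic factors split. Of 27 members 8 were higher and 9 lower (median 0.03), with ESM1, ADAMTS1 and EDN1 far up and VEGFA far down as given above. FGF1, a fibroblast growth factor picked after its values were seen, rose from 7.97, 8.07 and 8.10 in shCPT-1 to 8.99, 9.02 and 9.04 in shCPT-2 (0.97 ± 0.06). ANGPTL4, a lipoprotein lipase inhibitor, was lower by -0.37 ± 0.07. Of 6 tested endothelial markers 2 were called higher, TIE1 (0.71 ± 0.11) and ROBO4 (0.21 ± 0.07), while PECAM1 was at -0.16 ± 0.11 (adjusted p 0.273), KDR at 0.19 (adjusted p 0.193), ENG at 0.11 (adjusted p 0.127) and TEK at 0.05 (adjusted p 0.702). The 3 probe sets of PECAM1 ran from -0.78 to -0.16. CDH5, VWF and CLDN5 were not among the tested genes. TIE1 passed the array median in 1 of 3 shCPT-1 arrays, so its fold is less certain. ROBO4 lost its call without shCPT-1 replicate 1 or 3 or shCPT-2 replicate 2 (adjusted p 0.0661 to 0.105), and the summed intensity of the 6 was 1755 to 1823 in shCPT-1 and 1912 to 2094 in shCPT-2. Their part in the result was not tested.

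Matrix proteases and their inhibitors had more members lower than higher. Of 36 members 5 were higher and 18 lower (median -0.11), which is 13.9% and 50%, beside 17.7% and 17.8% of all genes. At 2-fold or more, 3 were higher and 2 lower. MMP1, the interstitial collagenase, read 11.72, 11.66 and 11.71 in shCPT-1, 12.85, 12.83 and 12.86 in shCPT-2 and 12.15 to 12.28 in scramble (1.15 ± 0.04, adjusted p 4.04e-09), which places the control between the knockdowns. MMP9, a gelatinase, read 6.74 to 6.82 and 6.50 to 6.80, a difference of -0.07 ± 0.10 (adjusted p 0.628). The plasminogen activators PLAU (-0.57 ± 0.05) and PLAT (-0.47 ± 0.06) were lower. All 4 tissue inhibitors of metalloproteinases were lower, a set read after its values were seen: TIMP4 by -1.47 ± 0.08, TIMP3 by -1.41 ± 0.08, TIMP2 by -0.64 ± 0.07 and TIMP1 by -0.38 ± 0.04. TIMP3 read 10.62, 10.58 and 10.66 in shCPT-1, 9.35, 9.03 and 9.27 in shCPT-2 and 9.88 to 10.04 in scramble. TIMP4 was under the median of every shCPT-2 array, where its fold is less certain.

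Cell adhesion and matrix genes moved in both directions. Among integrins, laminins and adhesion genes 7 of 36 were higher and 12 lower (median 0.02). LAMA5, a basement membrane laminin chain, read 11.00, 11.20 and 11.18 in shCPT-1 and 9.84, 9.97 and 9.88 in shCPT-2 (-1.23 ± 0.08), and L1CAM, a neural adhesion molecule, fell by 0.78 ± 0.06. The 2 probe sets of L1CAM ran from -0.78 to -0.13. The collagen-binding integrin chains ITGA2 (-0.98 ± 0.13) and ITGA1 (-0.93 ± 0.10), picked after their values were seen, were lower. ITGB8 was at -1.43 ± 0.12, but under the array median in all 6 arrays. SRPX, a sushi-repeat protein, was higher (0.86 ± 0.07) and far under scramble in both groups, at 6.39 to 6.69 in shCPT-1, 7.29 to 7.48 in shCPT-2 and 10.06 to 10.10 in scramble. Collagens and their modifying enzymes gave 8 higher and 12 lower of 29 (median -0.09). COL12A1, a fibril-associated collagen, rose by 0.78 ± 0.07, while P4HA1, the prolyl hydroxylase subunit that is also on the hypoxia list, fell by 1.11 ± 0.04, COL18A1, the source of endostatin, by 0.53 ± 0.06 and COL13A1, a transmembrane collagen, by 0.47 ± 0.04.

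Epithelial genes and ETS factors were lower in 15 of 33 members and higher in 6 (median -0.14). ETV1, an ETS factor, read 9.93, 9.86 and 9.83 in shCPT-1 and 8.74, 8.31 and 8.49 in shCPT-2 (-1.36 ± 0.08), and KRT80, an epithelial keratin, 9.48, 9.57 and 9.47 against 8.48, 8.35 and 8.29 (-1.14 ± 0.06). The epithelial ETS factors EHF (-1.65 ± 0.06) and SPDEF (-0.75 ± 0.06) were lower, EHF under the array median in every shCPT-2 array, and both were highest in scramble, at 9.70 to 9.92 for EHF. The 5 probe sets of SPDEF ran from -0.75 to 0.045, and the 4 of ETV1 from -1.36 to -0.29. Of 11 luminal breast markers 6 were lower and 2 higher, with the simple-epithelium keratins KRT8 (-0.48 ± 0.05), KRT18 (-0.35 ± 0.06) and KRT19 (-0.29 ± 0.05) lower and the luminal factor GATA3 higher (0.30 ± 0.04). In the mesenchymal list 7 of 22 were higher and 3 lower (median 0.06). The actin-binding CALD1 rose by 0.56 ± 0.05, fibronectin (FN1) fell by 0.49 ± 0.04, and the EMT factor ZEB1 read 11.02 to 11.07 and 11.03 to 11.12 (0.04 ± 0.04, adjusted p 0.459). The 8 probe sets of CALD1 ran from 0.04 to 0.56, the 5 of FN1 from -0.51 to -0.09 and the 3 of ZEB1 from -0.38 to 0.17. Of 4 fibroblast markers 0 were higher and 1 lower, COL1A1 (-0.21 ± 0.05), whose mean over probe sets was -0.07 (adjusted p 0.258). PDGFRB was at -0.17 (adjusted p 0.279), PDGFRA and THY1 at -0.04 each. Of 5 lung and thyroid epithelial markers 2 were higher, NKX2-1, a lineage factor of lung and thyroid (0.48 ± 0.07), and its neighbour SFTA3 (0.30 ± 0.06). The 2 probe sets of NKX2-1 ran from 0.09 to 0.48. The surfactant genes SFTPB (0.12) and SFTPC (0.03) and the protease NAPSA (-0.16) did not pass the test.

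The TGF-beta and BMP list was lower in 15 of 33 members and higher in 6 (median -0.08). The inhibitors that these pathways induce were among the falls: PMEPA1 read 9.13, 9.11 and 9.15 in shCPT-1 and 8.17, 8.02 and 8.07 in shCPT-2 (-1.04 ± 0.05), and SMAD6 fell by 1.66 ± 0.08, under the array median in every shCPT-2 array. The 3 probe sets of SMAD6 ran from -1.66 to 0.02. ID1, a BMP target, read 9.94, 9.81 and 9.86 in shCPT-1 and 8.83, 8.68 and 8.87 in shCPT-2 (-1.08 ± 0.07), with scramble at 8.68 to 8.86 beside shCPT-2. LTBP1, which stores latent TGF-beta in the matrix, fell by 0.72 ± 0.05, and the ligand TGFB2 rose by 0.50 ± 0.06. The 4 probe sets of TGFB2 ran from -0.05 to 0.98. In the YAP and TEAD list 11 of 37 were higher and 5 lower (median 0.07). WWTR1, the gene of the YAP relative TAZ, read 11.73, 11.79 and 11.76 in shCPT-1, 10.73, 10.48 and 10.54 in shCPT-2 and 10.97 to 11.02 in scramble (-1.18 ± 0.06). FJX1 (0.45 ± 0.05) and GADD45A, a growth-arrest gene (0.59 ± 0.05), were higher.

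NF-kB targets moved both ways. In the NF-kB list 9 of 30 were higher and 12 lower (median -0.03). CXCL3 read 7.51, 7.52 and 7.51 in shCPT-1, 8.36, 8.27 and 8.27 in shCPT-2 and 8.79 to 9.04 in scramble (0.79 ± 0.06, adjusted p 9.09e-07). CXCL2 (0.57 ± 0.07) and CXCL1 (0.42 ± 0.08) were higher, and CXCL8, at 12.33 to 12.43 and 12.46 to 12.61, did not pass the test (0.17 ± 0.06, adjusted p 0.0552), though it did without scramble replicate 1 or 3 or shCPT-2 replicate 2 (adjusted p 0.0239 to 0.0366). These chemokines attract neutrophils through a shared receptor. The interleukin IL24 (0.93 ± 0.08) and the NF-kB inhibitor TNFAIP3 (0.70 ± 0.06) were higher. IL11, a cytokine of the IL-6 family, read 10.70, 10.66 and 10.71 in shCPT-1 and 9.52, 9.33 and 9.35 in shCPT-2 (-1.29 ± 0.05), with scramble at 10.75 to 10.81, and IL1B, picked after its values were seen, was lower by -0.76 ± 0.11.

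Fatty acid synthesis and PPAR genes had more members lower than higher, and cholesterol synthesis moved both ways. Fatty acid synthesis gave 1 higher and 8 lower of 20 (median -0.07). SCD, the desaturase that makes oleate, read 12.53, 12.44 and 12.44 in shCPT-1, 11.85, 11.80 and 11.80 in shCPT-2 and 11.91 to 11.92 in scramble (-0.66 ± 0.05, adjusted p 8.49e-07). SREBF1, the master regulator of lipogenesis, was lower by -0.74 ± 0.07, the elongase ELOVL7 by -0.82 ± 0.04 and ACSS2, which makes acetyl-CoA from acetate, by -0.44 ± 0.05. The 1 member called higher was GPAM, the acyltransferase that starts glycerolipid synthesis (0.51 ± 0.08). The PPAR and lipid droplet list gave 2 higher and 12 lower of 24 (median -0.19). PPARG, the adipogenic nuclear receptor, was lower by -0.54 ± 0.06, its partner RXRA by -0.61 ± 0.07 and G0S2, an inhibitor of triglyceride lipase, by -0.46 ± 0.04, against the rise of FABP5. Cholesterol synthesis gave 5 higher and 3 lower of 19 (median 0.06). These are 26.3% and 15.8%, beside 17.7% and 17.8% of all genes. Without the probe set kinds prone to cross-hybridisation, 3 were higher and 2 lower. SC5D (0.50 ± 0.07), SQLE (0.40 ± 0.05) and HMGCS1 (0.33 ± 0.06), enzymes of the pathway, were higher, and INSIG1, which restrains it, was lower (-0.39 ± 0.07).

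Stress pathways were lower in part. The ATF4 list, genes of amino acid supply and the integrated stress response, gave 3 higher and 18 lower of 35 (median -0.15). TRIB3, a pseudokinase, read 9.80, 9.84 and 9.76 in shCPT-1, 9.05, 9.21 and 9.19 in shCPT-2 and 9.18 to 9.20 in scramble (-0.65 ± 0.05). CTH, which makes cysteine, read 9.46 to 9.52 in shCPT-1, 9.05 to 9.12 in shCPT-2 and 8.01 to 8.12 in scramble (-0.42 ± 0.05), so that both knockdowns were above the control. VLDLR, a lipoprotein receptor, was lower by -0.90 ± 0.10. The list medians against scramble were 0.40 for shCPT-1 and 0.24 for shCPT-2. ER chaperones gave 2 higher and 11 lower of 24 (median -0.15; 1 higher without shCPT-1 replicate 2 or 3 or shCPT-2 replicate 1 or 3). The chaperone HSPA5 was lower by -0.31 ± 0.05, HYOU1 by -0.36 ± 0.06 and the co-chaperone DNAJC3 by -0.28 ± 0.05, and CREB3L2, a membrane-bound transcription factor, by -0.64 ± 0.04, of which -0.12 (adjusted p 0.334) was left without the probe set kinds prone to cross-hybridisation. The NRF2 and glutathione list gave 5 higher and 4 lower of 25 (median 0.0; 3 higher without shCPT-2 replicate 3). TXNRD1, thioredoxin reductase, was higher by 0.32 ± 0.04, while GPX4, which removes lipid peroxides, was lower by -0.47 ± 0.05 and AKR1C3, an aldo-keto reductase, by -1.12 ± 0.07. ABCC3, a drug exporter, was lower by -0.44 ± 0.07, but by -0.12 (adjusted p 0.219) without the probe set kinds prone to cross-hybridisation.

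The mitochondrial lists had small differences. Oxidative phosphorylation gave 3 higher and 15 lower of 64 (median -0.04), with UQCRC1, a complex III core protein, at -0.31 ± 0.05, NDUFB10, of complex I, at -0.34 ± 0.05 and COX7B, of complex IV, at -0.30 ± 0.05. UQCR11, of complex III, was at -0.33 ± 0.05, but at -0.05 (adjusted p 0.65) without the probe set kinds prone to cross-hybridisation. These counts were not stable: without the least correlated array of each group 14 were higher and 19 lower, and without the probe set kinds prone to cross-hybridisation 5 were lower. The TCA cycle gave 3 higher and 6 lower of 23. PDHX, of the pyruvate dehydrogenase complex (0.29 ± 0.05), and IDH3B, an isocitrate dehydrogenase subunit (0.30 ± 0.06), were higher, while SUCLG2, a succinyl-CoA ligase chain (-0.30 ± 0.05), and SDHD, a succinate dehydrogenase subunit (-0.25 ± 0.06), were lower. Mitochondrial ribosomal proteins gave 11 higher and 8 lower of 73 (3 lower without shCPT-2 replicate 3, and 5 without shCPT-1 replicate 1 or shCPT-2 replicate 1). MRPL32 (0.28 ± 0.05) and MRPL9 (0.20 ± 0.04) were higher. MRPS5 was at 0.27 ± 0.05 and MRPS16 at -0.29 ± 0.05, and neither passed without the probe set kinds prone to cross-hybridisation (0.13, adjusted p 0.448, and -0.09, adjusted p 0.494).

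Among protein synthesis and turnover lists, only the cytoplasmic ribosome had few members called, beside 17.7% higher and 17.8% lower of all genes. Proteasome subunits (19.4% higher and 9.68% lower) and lysosome genes (16.2% and 13.5%) were nearer those shares. Cytoplasmic ribosomal proteins gave 0 higher and 2 lower of 51 (0 lower without shCPT-1 replicate 2 or shCPT-2 replicate 1 or 3, and 1 without scramble replicate 1 or 2, ETX replicate 2 or shCPT-1 replicate 1 or 3). These were RPLP1 (-0.16 ± 0.05, adjusted p 0.0205) and RPL36 (-0.12 ± 0.04, adjusted p 0.0472), and the next, RPL35A (-0.11) and RPL12 (-0.10), did not pass. Proteasome subunits gave 6 higher and 3 lower of 31 (3 higher without shCPT-1 replicate 2 or 3 or shCPT-2 replicate 1 or 3, and 1 lower without any 1 array other than scramble replicate 3, ETX replicate 3 or shCPT-2 replicate 2). PSMD2 (0.22 ± 0.04), PSMD12 (0.24 ± 0.05) and the ubiquitin receptor ADRM1 (0.19 ± 0.05) were higher, and the deubiquitinase PSMD14 was lower (-0.26 ± 0.04). Lysosome and autophagy genes gave 6 higher and 5 lower of 37. MITF, a transcription factor of lysosome and pigment genes, rose by 0.62 ± 0.05, MAP1LC3B, the autophagosome protein LC3B, by 0.37 ± 0.04 and GLA, a lysosomal galactosidase, by 0.32 ± 0.04, while CTSD, an aspartic protease, fell by 0.63 ± 0.07.

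Src kinases and partners gave 1 higher and 4 lower of 24. PAG1, the membrane adaptor that recruits CSK, was lower by -0.27 ± 0.05 (adjusted p 0.00121), while CSK, the kinase that restrains Src, was higher by 0.34 ± 0.08. The 3 probe sets of PAG1 ran from -0.68 to 0.01. The kinase FYN was at -0.23 ± 0.06, but at -0.02 (adjusted p 0.916) without the probe set kinds prone to cross-hybridisation. The phosphatase PTPRA (-0.20 ± 0.06, adjusted p 0.028) lost its call without shCPT-1 replicate 2 or 3 or shCPT-2 replicate 2 or 3 (adjusted p 0.0529 to 0.108), and each of these fits left 2 members lower. Growth arrest and apoptosis genes gave 7 higher and 12 lower of 33, with the survival gene BCL2 at 0.65 ± 0.05 (0.27, adjusted p 0.0519, as the mean of its probe sets), the kinase PLK2 at 0.51 ± 0.05 and the cell cycle inhibitor CDKN1C at -0.72 ± 0.05. The kynurenine and AHR list gave 1 higher and 3 lower of 14 (0 higher without shCPT-2 replicate 3, and 2 without scramble replicate 1 or 3 or shCPT-1 replicate 3). The member higher was AADAT, a kynurenine aminotransferase (0.22 ± 0.06, adjusted p 0.0536 without shCPT-2 replicate 3). KYNU, kynureninase, read 8.32 to 8.65 in shCPT-2 and 9.02 to 9.05 in shCPT-1, both far under scramble at 10.84 to 10.97 (-0.56 ± 0.07). Cancer-testis antigens gave 1 higher and 6 lower of 10 (2 higher without scramble replicate 3 or ETX replicate 3). FAM133A was higher (0.51 ± 0.13). Beside MAGEA6, MAGEC1 (-0.75 ± 0.07), MAGEA12 (-0.66 ± 0.09), MAGED1 (-0.36 ± 0.04), SSX1 (-0.35 ± 0.06) and MAGEB2 (-0.35 ± 0.12, adjusted p 0.0454) were lower. MAGEB2 lost its call in each of 7 fits without 1 array (scramble replicate 1, 2 or 3, shCPT-1 replicate 2 or 3, shCPT-2 replicate 2 or 3; adjusted p 0.0519 to 0.17). SPANXB1 (0.13), PAGE5 (0.13) and MAGED2 (-0.17) did not pass the test.

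**Figure D5:**
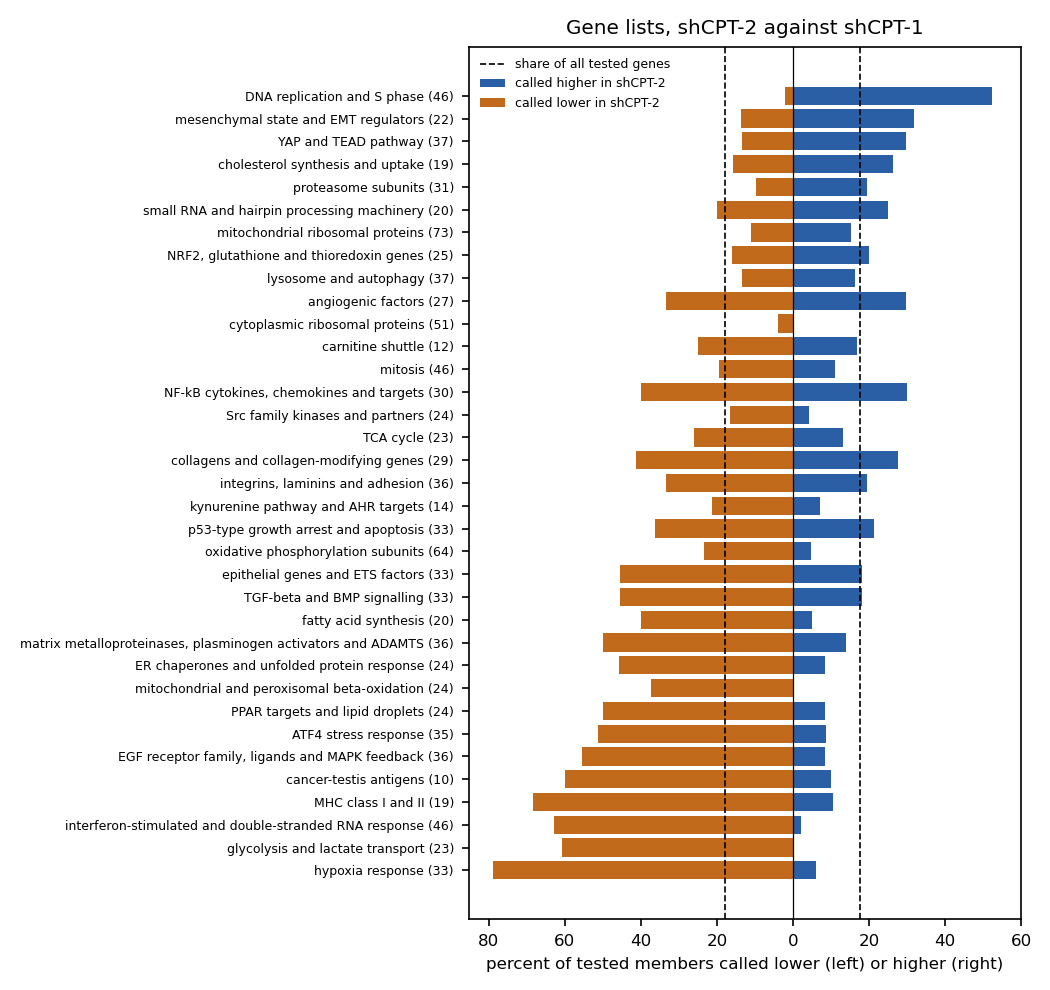
Share of the tested members (number in brackets) of each gene list, cell type markers left out, called higher (right, blue) or lower (left, orange) in shCPT-2; dashed lines are the shares of all tested genes, 17.7% and 17.8%. Hypoxia reaches 78.8% lower with 6.06% higher, and DNA replication 52.2% higher with 2.17% lower; cytoplasmic ribosomal proteins have 3.92% lower.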

How the data were processed

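Expression was measured on 12 arrays, and 6 of them are compared here. Per the labels, each array belongs to 1 group of 3. The deposited values are linear intensity per probe set, made with RMA per the submitters' processing notes; its version and settings are, in the sources used here, not given. Log2 of the deposited intensity was taken with no further normalization. Probe sets were kept where 3 or more arrays read them above that array's median (28628 of 54675), and each gene with 1 symbol was read by its probe set of highest mean, which gave 12886 genes. A group mean and spread were fitted with limma 3.58.1 (lmFit and eBayes, R 4.3.3) over all 12 arrays in 4 groups, with 8 residual degrees of freedom, and p-values were adjusted by Benjamini-Hochberg over all genes. The code was tested on simulated data. The number of arrays limits the precision.

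The comparison, its members and the 41 gene lists were chosen with earlier results of these data known. The lists are described by counts and medians, with no test. The text names the 15 largest called differences each way (groups not overlapping, higher mean at or above the median gene), the 4 (or fewer) members of smallest p in each list, the CPT genes, the ends and called genes of the extreme runs of neighbours, all members of small lists and a few set families; genes marked as picked later fall outside this rule. Alternatives changed the filter, the choice of probe set, normalization, the fit, the threshold, a replicate block and the arrays left out. Replicate numbers did not pair the samples: deviations of same-numbered arrays correlated at 0.188, 0.171 and -0.151. Promoters came from the RefSeq table (GRCh38.p14), which held 10425 of the tested genes. Genes on chromosome 8 were left out when the promoters to show were picked, but not from the motif counts.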

Additional observations from a re-analysis of the deposited data

How the results depend on the processing

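The counts of 2287 genes higher and 2288 lower stayed within 1.5 times under other filters, probe set choices, normalizations and fits, with 3 exceptions. Array weights gave 3738 higher and 3731 lower. A 2-fold minimum left 33 and 88. An adjusted p under 0.01 left 1517 higher. Leaving out 1 array gave 1844 to 2478 higher and 1811 to 2449 lower, CPT1A 1.33 to 1.44 and CPT2 -1.32 to -1.13. The replicate block gave 2183 higher and 2194 lower, but the numbers did not pair the samples. Without the probe set kinds prone to cross-hybridisation, 1767 were higher and 1648 lower. ESM1, FABP5, S100A4, KRT8 and KRT18, among others, were read by such kinds alone and were then not tested. TAGLN then read -0.0065 (adjusted p 0.958) and NEDD4L -0.11 (adjusted p 0.181), and ANXA1 read 0.0225 (adjusted p 0.822) as the mean of its probe sets, each the reverse of its call; the cause was not tested. The arrays give no probe-level signal here, so background was not corrected again, and genes under the array median have less certain folds. Without the least correlated array of each group, 2834 genes were higher and 2812 lower, and list counts moved by over 1.5 times in the following cases: members higher in the ATF4 list (5), EGF receptor list (6), NRF2 list (9), TCA cycle (6), TGF-beta list (11), carnitine shuttle (4), glycolysis (2), kynurenine list (0), leukocyte markers (0), beta-oxidation (6), mitochondrial ribosome (21), mitosis (11), oxidative phosphorylation (14), proteasome (10) and Src list (3), and members lower in the Src (7), YAP (10), cytoplasmic ribosome (4) and lysosome (8) lists. Without the probe set kinds prone to cross-hybridisation, where 10022 genes were tested in place of 12886, members lower became 11 in the ATF4 list, 13 in the EGF receptor list, 7 in the MHC list, 6 in the PPAR list, 2 in the Src list, 3 in the TCA cycle, 7 in the TGF-beta list, 4 in the angiogenic list, 6 in the collagen list, 4 in fatty acid synthesis, 8 in glycolysis, 16 in the hypoxia list, 5 in beta-oxidation, 3 in the mitochondrial ribosome, 5 in mitosis, 5 in oxidative phosphorylation, 1 in the mesenchymal list, 0 among fibroblast markers and 4 in the cytoplasmic ribosome. Members higher became 1 in the ATF4 and PPAR lists and among endothelial, luminal, lung and basal-line markers, 5 in the angiogenic list and the mitochondrial ribosome, 3 in cholesterol synthesis, the cytoplasmic ribosome, lysosome, proteasome and small RNA lists, 2 in the mesenchymal list and 4 in the growth arrest list.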

Other observations

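Neighbouring genes on some chromosomes differed together. Along 12852 genes placed by RefSeq (GRCh38.p14), the median difference of 12415 overlapping runs of 20 genes lay between -0.109 and 0.135 for the middle 95% of runs. The highest run, on chromosome 18 from NEDD4L to SERPINB8, had a median of 0.299 with 12 genes higher and 0 lower, among them SERPINB7, a serpin (0.85), ALPK2, a kinase (0.67), and BCL2 (0.65). SERPINB7 passed the array median in all 3 shCPT-2 arrays and in 0 shCPT-1 arrays. The group where it is high could thus alone bring it through the filter, and its fold is less certain. RELCH (0.46), NEDD4L (0.43), SEC11C (0.41), CCBE1 (0.38), SERPINB8 (0.37), ZNF532 (0.36), VPS4B (0.31), MALT1 (0.29) and KDSR (0.13) were the others called. MALT1 and KDSR each lost their call in 4 fits without 1 array (adjusted p 0.0514 to 0.0786 and 0.0595 to 0.0869), for MALT1 shCPT-1 replicate 1 or 3 or shCPT-2 replicate 1 or 2, and for KDSR shCPT-1 replicate 1 or 2 or shCPT-2 replicate 2 or 3. The lowest, on chromosome 6 from HLA-DRA to HSD17B8, had a median of -0.289 with 11 lower and 2 higher and holds the class II genes. Called in it beside those given above were HLA-DRB6 (-0.61), HLA-DMB (-0.44), HSD17B8 (-0.44), PSMB9 (-0.43), PSMB8-AS1 (-0.42), PSMB8 (-0.35) and HLA-DQB1 (-0.23, adjusted p 0.0567 without shCPT-2 replicate 2). HLA-DOB, given above, was called higher (0.39). HLA-DOB likewise passed the array median in all 3 shCPT-2 arrays and in 0 shCPT-1 arrays. PSMB8-AS1 passed it in 1 shCPT-2 array, so the folds of both genes are less certain. The run from S100A6 to JTB on chromosome 1 had a median of -0.224 with 11 lower and 0 higher.

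Whole chromosomes were uneven too. Over all genes 17.7% were higher and 17.8% lower. On chromosome 3, 98 of 712 tested genes were higher and 196 lower, and on chromosome 9, 48 of 522 were higher and 136 lower. On chromosome 18, 54 of 175 were higher and 25 lower, and on chromosome 13, 65 of 224 were higher and 24 lower. Chromosome 10 (140 of 501 higher and 86 lower) and chromosome 16 (137 of 590 higher and 76 lower) were uneven as well. Others were not, such as chromosome 11, with 132 of 748 higher and 132 lower. No DNA copy number was analysed here, and the part of copy number was not tested.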
